A study of Mus musculus with 24 samples.

Results

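Mitochondria make most of the ATP of neurons and glia by oxidative phosphorylation, and 80 genes whose names mark them as subunits of that machinery were followed here in mouse spinal cord during experimental autoimmune encephalomyelitis (EAE), a model of multiple sclerosis. They were taken by name from the platform annotation, out of 17097 genes with a named probe set. The Nduf genes of complex I were taken without the assembly factors and without Ndufa12. Sdha to Sdhd were taken for complex II, and the Uqcr genes and Cyc1 for complex III. Cox4 to Cox8 genes were taken for complex IV and Atp5 genes for complex V. Counted by the complex in which the protein is found, 31 belong to complex I, 4 to complex II, 8 to complex III, 19 to complex IV and 17 to complex V, and 1 symbol, Ndufs5-ps, is that of a pseudogene. Ndufa4 and Ndufa4l2 were counted with complex IV.

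The arrays came from 24 female mice, 8 to 12 weeks old, with 1 spinal cord on each array. Wild-type recipients of Th17 cells, wild-type recipients of Th1 cells, naive wild-type mice and naive mice labelled Act1 KO were 5 each, and recipients of Th17 cells labelled Act1 KO were 4. Recipients had received 500 rad of irradiation and then T cells against the myelin peptide MOG35-55, cultured with IL-23 (Th17) or with IL-12 and an antibody to IL-23p19 (Th1), and their cords were taken after 12 days by the methods. The labels give the onset of symptoms as the time of collection and the study's text gives the peak. Naive mice had neither irradiation nor transfer, so the effects of irradiation, transferred cells and disease cannot be told apart in any comparison with them.

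Complexes I and II feed electrons from NADH and succinate into the chain, complex III passes them to cytochrome c, and complex IV hands them to oxygen. Complexes I, III and IV pump protons as they do so, and complex V, the ATP synthase, uses the returning protons to make ATP. A few of the subunits of complexes I, III, IV and V are encoded in mitochondrial DNA, while all the genes described here lie in the nucleus. Some subunits of complex IV exist as isoforms that particular tissues or conditions favour. Act1, encoded by Traf3ip2, is the adaptor through which the receptor of IL-17 signals. Neurons depend on oxidative phosphorylation more than most cells, and energy failure of axons is a known feature of inflammatory demyelination.

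Values were log2 expression levels made by the authors with RMA, which brings all arrays to a common distribution. They show a gene's place relative to other genes and not an amount per cord, and fewer cells of a type cannot be told apart from less RNA per cell. Array medians lay between 3.46 and 3.57, and 4 of the 80 genes (Cox4i2, Cox7b2, Cox8c and Ndufa4l2) had a mean level under the mean of these medians, near the background. The Traf3ip2 probe set did not read lower with the Act1 KO label: it averaged 5.56 ± 0.24 in naive mice labelled Act1 KO and 4.29 ± 0.20 in naive wild-type mice (SD, n = 5 each), so it cannot check that label, and where it lies relative to the mutation is not given in the sources used here. The median SD between mice of 1 group over the subunit genes was 0.117.

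Subunit genes were lower, as a set and by modest amounts, in the inflamed cords of both kinds of recipient. In wild-type Th17 recipients against naive wild-type mice, 49 of the 80 genes fell and 2 rose (limma, adjusted p under 0.05 over all genes), whereas of all genes tested 25.5% fell and 18% rose. With arrays centred on ribosomal protein genes, 75 of the 80 fell and none rose, but that scaling also moved the median of all genes to -0.42. In Th1 recipients against the same naive mice, 46 fell and 4 rose, beside 24.1% and 16.7% of all genes. The median difference over the 80 genes was -0.29 in Th17 recipients and -0.25 in Th1 recipients, while the median of all genes was -0.05 in Th17 recipients and -0.06 in Th1 recipients. Counting direction alone, 73 of the 80 lay below 0 in Th17 recipients and 70 in Th1 recipients, beside 59.6% and 61.5% of all genes. Of the 80, 41 lay below every naive mouse in all Th17 recipients and 42 in all Th1 recipients, beside 20% and 19.5% of all genes. Above every naive mouse lay 1 and 5, beside 15% and 14.1% of all genes. Many genes named below were picked by their results in these comparisons, so their lack of overlap is no separate support. These comparisons share their naive mice.

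**Figure D1:**
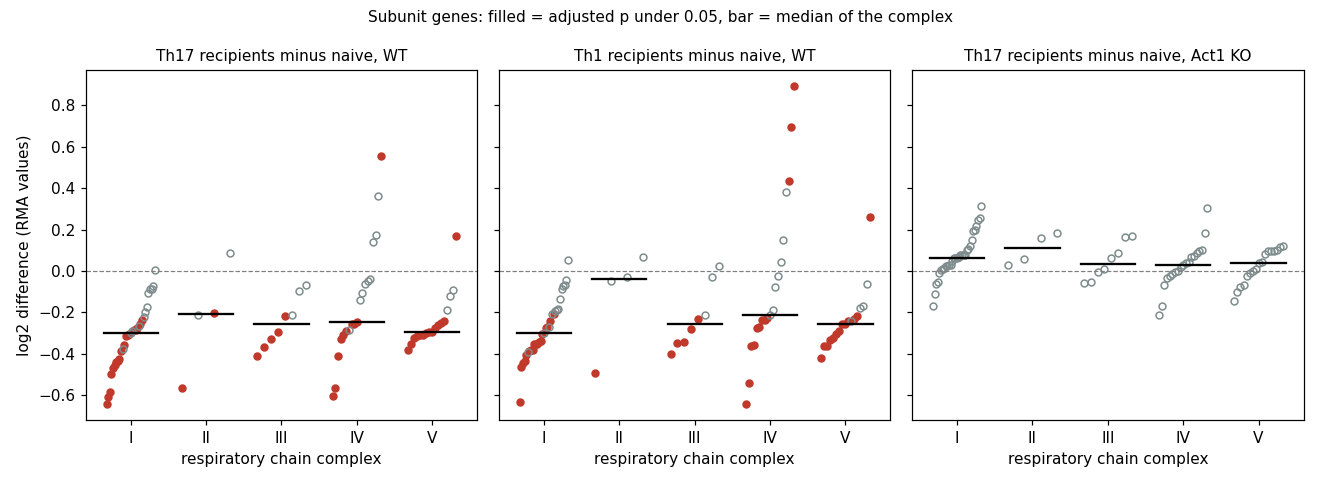
Each point is a subunit gene, placed by complex on the horizontal axis and by its log2 difference on the vertical axis, for Th17 recipients minus naive (WT), Th1 recipients minus naive (WT) and Th17 recipients minus naive (mice labelled Act1 KO). Filled points passed an adjusted p under 0.05 and bars are medians of each complex; most filled points of the wild-type panels lie below 0, and the panel of mice labelled Act1 KO has none.

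The fall of these genes went with larger median changes in the markers of neurons, oligodendrocytes, monocytes and macrophages, and T cells. Of 20 neuronal markers, 19 fell in Th17 recipients and 20 in Th1 recipients, with medians of -0.73 and -0.66. Their mean level ran between 8.65 and 8.78 in Th17 recipients and between 8.64 and 8.85 in Th1 recipients, against 9.43 to 9.52 in naive wild-type mice. Of 13 oligodendrocyte markers, 12 fell in each kind of recipient, with medians of -0.79 in Th17 recipients and -0.83 in Th1 recipients. Of 17 markers of monocytes and macrophages, 16 rose in Th17 recipients and 17 in Th1 recipients, and their mean level was 8.51 to 8.85 in Th17 recipients and 8.26 to 8.66 in Th1 recipients, against 3.41 to 3.43 in naive wild-type mice. All 12 T cell markers rose in each, and 7 of 10 neutrophil markers rose in Th17 recipients and 5 of 10 in Th1 recipients. Of 11 astrocyte markers 6 fell in each kind of recipient while 4 rose in Th17 recipients and 3 in Th1 recipients. Of 14 markers of vessels, 4 fell and 4 rose in Th17 recipients, and 5 fell and 4 rose in Th1 recipients. Of all genes 25.5% fell and 18% rose in Th17 recipients, and 24.1% fell and 16.7% rose in Th1 recipients. The median differences were -0.05 and 0.01 for vessel markers and -0.43 and -0.22 for astrocyte markers, in Th17 and Th1 recipients. The part of this altered cell makeup in the lower subunit levels was not tested.

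Complex I, which oxidises NADH, supplied the largest number of genes. Of its 31 genes, 19 fell and none rose in Th17 recipients, and 18 fell and none rose in Th1 recipients, each with a median of -0.30. Ndufs1 encodes the largest iron-sulphur subunit of the arm that faces the matrix. Its level was 9.31, 9.31, 9.27, 9.35 and 9.45 in Th17 recipients and 9.40, 9.12, 9.21, 9.52 and 9.49 in Th1 recipients, against 10.06, 9.98, 9.82, 10.00 and 10.03 in naive wild-type mice. All 10 recipients lay below all naive mice, by 0.64 (SE 0.077, limma adjusted p = 1.05e-07) in Th17 recipients and 0.63 (SE 0.077, adjusted p = 1.67e-07) in Th1 recipients. On the linear scale the Th17 difference is a level 35.9% lower. Ndufb10, an accessory subunit of the membrane arm, read 9.36, 9.26, 9.20, 8.98 and 9.57 in Th17 recipients and 9.34, 9.49, 9.35, 9.52 and 9.51 in Th1 recipients, against 9.84, 9.86, 9.91, 10.01 and 9.81 in naive wild-type mice. Recipients and naive mice did not overlap for it, and the differences were -0.61 (SE 0.137, adjusted p = 0.000604) and -0.44 (SE 0.137, adjusted p = 0.0104).

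The core subunits of complex I, which carry its electron path, were measured for 6 genes. Of these 5 fell in Th17 recipients and 4 in Th1 recipients. Ndufs8 and Ndufs7 hold iron-sulphur clusters near the ubiquinone site. Ndufs8 differed by -0.47 in Th17 recipients and -0.44 in Th1 recipients, and Ndufs7 by -0.44 and -0.35. Ndufv2, of the module that binds NADH, differed by -0.38 in each. Ndufb3 and Ndufb9 are accessory subunits of the membrane arm. Ndufb3 fell by 0.58 in Th17 recipients and by 0.34 in Th1 recipients, and Ndufb9 by 0.43 and 0.46. Ndufab1, the mitochondrial acyl carrier protein, fell by 0.50 and 0.40. Without probe sets that may read related transcripts it had another probe set, and its differences of -0.19 in Th17 recipients and -0.18 in Th1 recipients were not called. Not every gene of the complex moved: Ndufv3 (0.00) and Ndufa2 (-0.07), chosen after their values were seen, had differences close to 0 in Th17 recipients, with adjusted p of 0.98 and 0.514.

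Complex II, or succinate dehydrogenase, links the chain to the citric acid cycle. Its catalytic flavoprotein gene, Sdha, read 10.22, 10.23, 10.24, 10.23 and 10.15 in Th17 recipients and 10.43, 10.34, 10.16, 10.22 and 10.30 in Th1 recipients, against 10.82, 10.82, 10.89, 10.65 and 10.70 in naive wild-type mice. No recipient reached the lowest naive mouse, and the differences were -0.56 (SE 0.091, adjusted p = 9.35e-06) in Th17 recipients and -0.49 (SE 0.091, adjusted p = 7e-05) in Th1 recipients. A second probe set of Sdha with a level of 9.93 gave -0.53 and -0.48. Sdhb, its iron-sulphur partner, fell by 0.20 in Th17 recipients (adjusted p = 0.0119). In Th1 recipients its difference was -0.03 (adjusted p = 0.778). Sdhc and Sdhd encode the membrane anchors. Sdhc had differences of -0.21 in Th17 recipients (adjusted p = 0.128) and -0.05 in Th1 recipients, and Sdhd, whose only probe set was dim at 4.65, had 0.08 and 0.07, so neither passed the test.

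Of the 8 genes of complex III, 5 fell in Th17 recipients and 5 in Th1 recipients, with medians of -0.26 in Th17 recipients and -0.26 in Th1 recipients. Cyc1 encodes cytochrome c1, the haem protein that hands electrons to cytochrome c. It read 10.25, 10.36, 10.26, 10.31 and 10.40 in Th17 recipients and 10.44, 10.25, 10.25, 10.26 and 10.44 in Th1 recipients, against 10.78, 10.79, 10.67, 10.65 and 10.75 in naive wild-type mice. The groups did not overlap, with differences of -0.41 (SE 0.071, adjusted p = 2.58e-05) and -0.40 (SE 0.071, adjusted p = 4.29e-05). Uqcrc1 and Uqcrc2, the core proteins of the complex, fell by 0.37 and 0.30 in Th17 recipients, and by 0.34 and 0.23 in Th1 recipients. Uqcrfs1, the Rieske iron-sulphur protein, fell by 0.33 in Th17 recipients and 0.28 in Th1 recipients. Cycs, which encodes the cytochrome c that complex III serves and is not itself a subunit, fell by 0.39 in Th17 recipients (adjusted p = 0.00533) and 0.31 in Th1 recipients (adjusted p = 0.0259).

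Complex IV was the most mixed. Of its 11 common subunits, 8 fell and none rose in Th17 recipients, and 8 fell and 1 rose in Th1 recipients. Cox5a read 10.84, 10.58, 10.76, 10.69 and 10.77 in Th17 recipients and 10.82, 10.78, 10.79, 10.74 and 10.77 in Th1 recipients, against 11.18, 11.08, 11.19, 11.13 and 11.10 in naive wild-type mice. It fell by 0.41 (SE 0.076, adjusted p = 6.34e-05) in Th17 recipients and by 0.36 (SE 0.076, adjusted p = 0.000373) in Th1 recipients, with no overlap. Cox6c and Cox8a, small subunits of the membrane, fell by 0.33 and 0.29 in Th17 recipients. In Th1 recipients they fell by 0.28 and 0.23.

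Ndufa4, first assigned to complex I and now placed at complex IV, had the smallest adjusted p of all subunit genes in both comparisons. Its level was 10.52, 10.38, 10.46, 10.35 and 10.52 in Th17 recipients and 10.33, 10.34, 10.43, 10.50 and 10.44 in Th1 recipients, against 11.02, 11.04, 10.98, 11.15 and 11.05 in naive wild-type mice. The gap between the groups exceeded the spread within each of them, with differences of -0.60 (SE 0.064, adjusted p = 1.24e-08) and -0.64 (SE 0.064, adjusted p = 4.89e-09). AA467197, also known as Nmes1, encodes a relative of Ndufa4 that is known to take its place in complex IV of inflammatory macrophages. It read 9.64, 9.50, 9.99, 9.68 and 9.59 in Th17 recipients and 9.14, 10.10, 9.56, 8.71 and 8.88 in Th1 recipients, against 2.78, 2.74, 2.70, 2.73 and 2.65 in naive wild-type mice. It thus rose by 6.96 (SE 0.168, adjusted p = 3.16e-22) in Th17 recipients and 6.56 (SE 0.168, adjusted p = 1.12e-21) in Th1 recipients. The naive levels lie under the array medians, near background, so these differences are lower bounds. The macrophage markers named above rose in the same cords, and their part in the levels of this pair of genes was not tested.

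**Figure D2:**
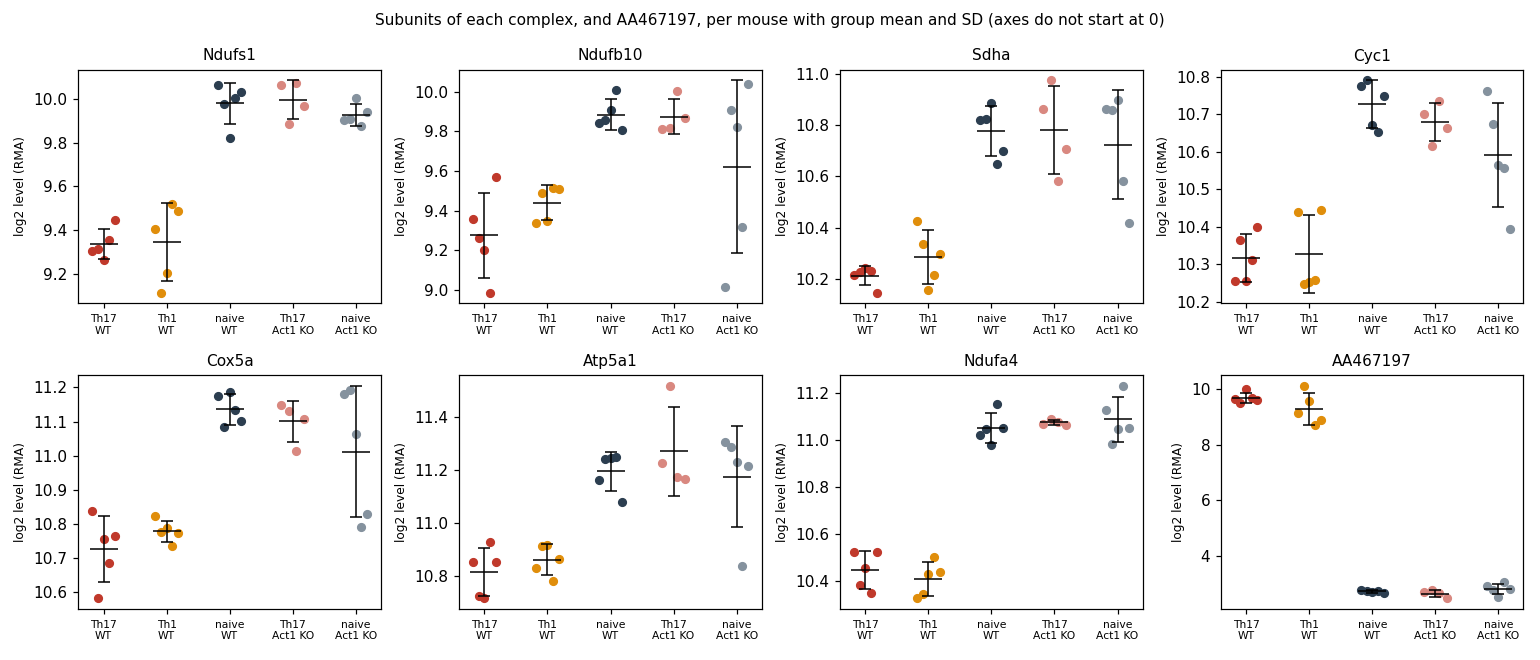
Log2 level of 7 subunit genes and of AA467197 in each mouse (points) by group on the horizontal axis, with group means and SD. Ndufs1, Ndufb10, Sdha, Cyc1, Cox5a, Atp5a1 and Ndufa4 are lower in Th17 and Th1 WT recipients than in naive WT mice without overlap, AA467197 is higher, and recipients labelled Act1 KO overlap with naive mice in all 8 panels.

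Several isoforms of complex IV that tissues or conditions favour had other directions than most of the common subunits. Cox6a2, the form of subunit VIa found in heart and skeletal muscle, rose in Th1 recipients: 4.24, 4.57, 5.07, 4.51 and 4.70, against 3.98, 3.76, 3.48, 3.71 and 3.67 in naive wild-type mice, a difference of 0.90 (SE 0.164, adjusted p = 6.24e-05) without overlap. In Th17 recipients it read 3.79, 4.00, 3.90, 4.81 and 3.94, and the difference of 0.36 did not pass (adjusted p = 0.077). Cox6a1, the common form, fell by 0.26 in Th17 recipients and 0.27 in Th1 recipients. Cox7a1, the muscle form of subunit VIIa, read 6.20, 5.60, 6.12, 6.06 and 6.01 in Th1 recipients, against 5.31, 5.15, 5.18, 5.29 and 5.58 in naive wild-type mice. It rose by 0.70 there (SE 0.187, adjusted p = 0.0035), and its difference in Th17 recipients was -0.05 (adjusted p = 0.877). Cox7a2, its common partner, had differences of -0.28 in Th17 recipients and -0.21 in Th1 recipients that did not pass.

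Skeletal muscle markers were read beside these isoforms, and most of them were dim. Of 14 muscle markers, 1 rose and 1 fell in each kind of recipient. The one that rose was Tnni2, a troponin of fast muscle, by 0.29 in Th17 recipients and 0.70 in Th1 recipients, and the one that fell was Pvalb, which neurons also express. The mean level of the list was 3.28 to 3.53 in Th17 recipients and 3.33 to 3.59 in Th1 recipients, against 3.38 to 3.46 in naive wild-type mice. In Th17 against Th1 recipients, 1 of the 14 was called lower, and Tnni2 averaged 3.23 in Th17 and 3.63 in Th1 recipients. Ckm, the muscle creatine kinase, averaged 2.93 in Th1 recipients and 2.96 in naive wild-type mice, and Myh4, a fast muscle myosin, 2.75 and 2.83. Of the 14 muscle markers, 13 had a mean level under the array medians. The list therefore cannot show whether muscle genes rose with Cox6a2 and Cox7a1.

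Cox7a2l encodes the factor that joins complexes III and IV in supercomplexes. It read 9.11, 9.33, 9.80, 9.27 and 9.09 in Th1 recipients, against 8.76, 8.90, 8.97, 8.84 and 8.95 in naive wild-type mice, and rose by 0.44 (SE 0.132, adjusted p = 0.00876). Its other probe sets gave differences of 0.40 and 0.26 in Th1 recipients. In Th17 recipients its difference was 0.14 (adjusted p = 0.443). Ndufa4l2, a relative of Ndufa4 that hypoxia is known to induce, read 4.03, 3.80, 3.92, 3.28 and 3.81 in Th17 recipients, against 3.10, 3.32, 3.02, 3.33 and 3.30 in naive wild-type mice. The difference was 0.56 (SE 0.130, adjusted p = 0.000868) with recipient 4 inside the naive range. All naive levels lay under the array medians, near background, and the recipients lay near those medians, so its size cannot be read closely. In Th1 recipients the difference was 0.15 (adjusted p = 0.4). In Th17 recipients against naive mice, both labelled Act1 KO, it was 0.30 and was not called. Cox8b, which heart, muscle and brown fat express in the mouse, was dim throughout. It fell by 0.56 in Th17 recipients (adjusted p = 0.00439) and 0.54 in Th1 recipients (adjusted p = 0.00671), and it read 2.95 to 3.48 in Th17 recipients and 3.07 to 3.31 in Th1 recipients, against 3.31 to 4.17 in naive wild-type mice. Th17 recipients 4 and 5 lay within the naive range and the other 3 below it, and Th1 recipients lay at or below its lower end. The means of both kinds of recipient were under the array medians and the naive levels were near them, so the size of the fall cannot be read closely. Of 6 brown fat genes, Cox8b included, 2 fell and 1 rose in each. Cox6b2, the testis form of subunit VIb, differed by 0.17 in Th17 recipients and 0.38 in Th1 recipients, neither past the test, and all 8 testis markers had a mean level over all arrays under the array medians, where changes cannot be read. With arrays centred on ribosomal protein genes the calls of Cox7a1 (0.28) and Cox7a2l (0.02) in Th1 recipients and of Ndufa4l2 (0.19) in Th17 recipients were lost. Cox4i2, Cox7b2 and Cox8c, all under the array medians, were not called in any comparison.

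**Figure D3:**
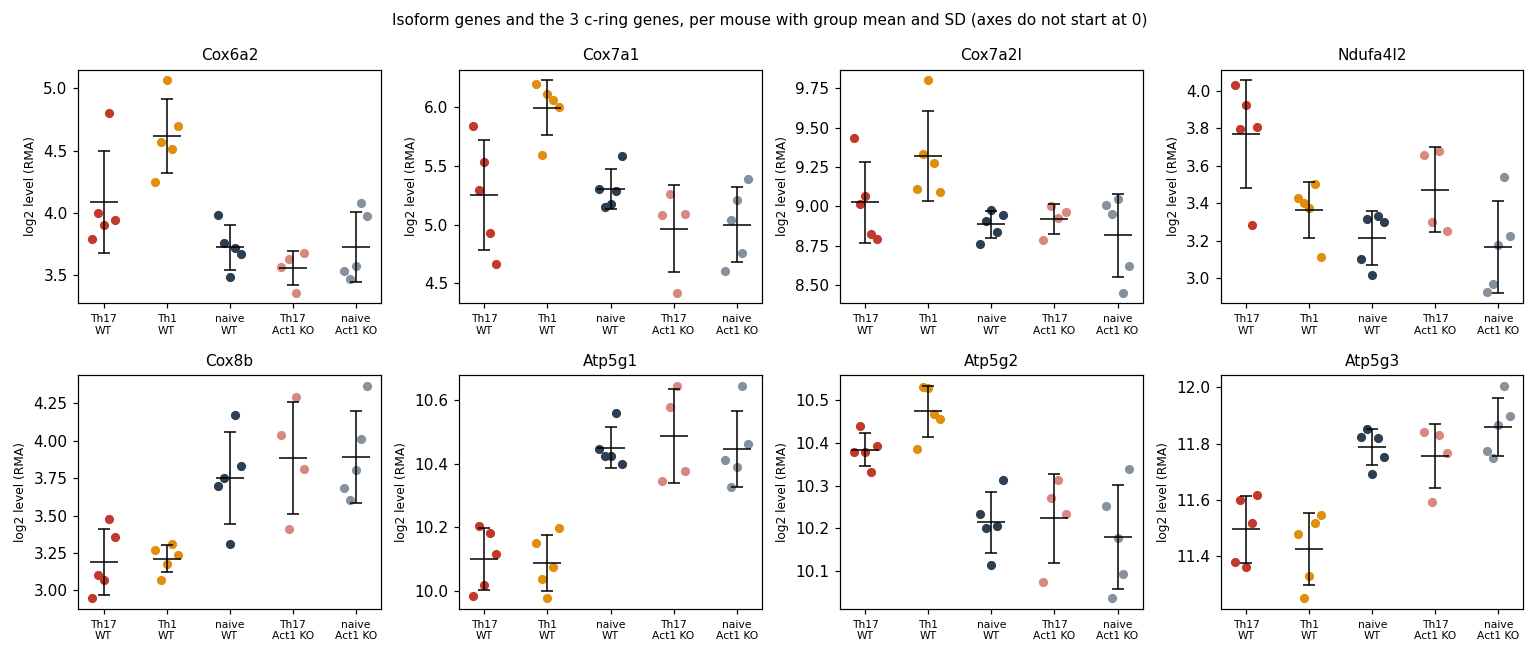
Log2 level of isoform genes of complex IV and of the 3 c-ring genes of ATP synthase in each mouse (points) by group, with group means and SD. The means of Cox6a2, Cox7a1 and Cox7a2l are highest in Th1 WT recipients and that of Ndufa4l2 in Th17 WT recipients, and Atp5g2 is higher in both kinds of WT recipient while Atp5g1 and Atp5g3 are lower.

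Complex V had the largest share of called genes: 13 of 17 fell and 1 rose in Th17 recipients, and 12 fell and 1 rose in Th1 recipients. The catalytic head, F1, was lower as a group, with 4 of its 5 genes falling in each kind of recipient. Atp5a1, which encodes the alpha subunit, read 10.85, 10.73, 10.72, 10.93 and 10.85 in Th17 recipients and 10.83, 10.91, 10.92, 10.78 and 10.86 in Th1 recipients, against 11.16, 11.24, 11.25, 11.25 and 11.08 in naive wild-type mice. Its differences were -0.38 (SE 0.085, adjusted p = 0.000548) and -0.33 (SE 0.085, adjusted p = 0.00222), without overlap. Atp5b, the beta subunit that makes ATP, fell by 0.30 in Th17 recipients and 0.29 in Th1 recipients. Atp5o, of the stalk, fell by 0.32 in Th17 recipients and 0.42 in Th1 recipients.

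The ring that turns with the proton flow is built from subunit c, and 3 genes, Atp5g1, Atp5g2 and Atp5g3, encode the same mature protein behind different import sequences. They moved in opposite directions. Atp5g1 read 9.98, 10.20, 10.02, 10.18 and 10.11 in Th17 recipients and 10.15, 10.04, 9.98, 10.07 and 10.20 in Th1 recipients, against 10.45, 10.42, 10.42, 10.56 and 10.40 in naive wild-type mice, and fell by 0.35 (SE 0.076, adjusted p = 0.000421) and 0.36 (SE 0.076, adjusted p = 0.000314). Atp5g3 read 11.36 to 11.62 in Th17 recipients and 11.25 to 11.55 in Th1 recipients, against 11.69 to 11.85 in naive wild-type mice, and fell by 0.29 and 0.36. Atp5g2 read 10.38, 10.44, 10.38, 10.33 and 10.39 in Th17 recipients and 10.39, 10.53, 10.53, 10.47 and 10.46 in Th1 recipients, against 10.23, 10.20, 10.11, 10.21 and 10.31 in naive wild-type mice. Every recipient lay above every naive mouse, with differences of 0.17 (SE 0.068, adjusted p = 0.0436) in Th17 recipients and 0.26 (SE 0.068, adjusted p = 0.00266) in Th1 recipients. The Th17 call was lost when any of 9 single arrays was left out, with differences of 0.15 to 0.18. With arrays centred on ribosomal protein genes, a scaling that put the all-gene median at -0.42 in Th17 recipients and -0.48 in Th1 recipients, the Atp5g2 differences were -0.20 and -0.16, still above that shift.

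The promoters of these genes are shown because the c-ring genes share a protein and differed in direction, and because nuclear respiratory factor 1 (NRF-1) and ETS family factors are known regulators of respiratory genes. Each run below is the 250 bases before the transcription start from RefSeq (GRCm38.p6), 5′ to 3′, with capitals marking the NRF-1 letters GCGCATGC or the ETS letters CCGGAAGT, searched on both strands. The first 3 are the c-ring genes, at chr11:96075632-96075881, minus strand, at chr15:102671048-102671297, minus strand and at chr2:73911327-73911576, minus strand. Ndufa11 of complex I (chr17:56717512-56717761, plus strand) and Atp5h of complex V (chr11:115419920-115420169, minus strand) both fell and carry the letters of 1 motif each.
Atp5g1: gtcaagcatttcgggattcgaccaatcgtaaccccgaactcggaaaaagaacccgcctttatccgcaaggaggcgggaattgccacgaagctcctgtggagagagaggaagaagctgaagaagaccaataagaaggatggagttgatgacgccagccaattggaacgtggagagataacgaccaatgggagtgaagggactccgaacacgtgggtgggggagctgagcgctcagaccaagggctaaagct
Atp5g2: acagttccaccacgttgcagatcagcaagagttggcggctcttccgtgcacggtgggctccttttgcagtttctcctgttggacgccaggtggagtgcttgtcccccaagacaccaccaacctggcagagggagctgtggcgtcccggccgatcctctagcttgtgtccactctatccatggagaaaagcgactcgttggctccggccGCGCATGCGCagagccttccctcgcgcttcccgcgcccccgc
Atp5g3: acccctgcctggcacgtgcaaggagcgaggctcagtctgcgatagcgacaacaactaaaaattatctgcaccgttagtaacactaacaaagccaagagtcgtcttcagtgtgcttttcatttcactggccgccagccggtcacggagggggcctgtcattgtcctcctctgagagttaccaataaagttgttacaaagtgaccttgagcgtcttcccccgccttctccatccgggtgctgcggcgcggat
Ndufa11: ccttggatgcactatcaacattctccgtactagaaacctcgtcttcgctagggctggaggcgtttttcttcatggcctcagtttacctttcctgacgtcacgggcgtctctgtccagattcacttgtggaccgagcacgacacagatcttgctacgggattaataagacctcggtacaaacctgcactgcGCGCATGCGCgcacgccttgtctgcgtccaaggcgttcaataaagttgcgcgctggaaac
Atp5h: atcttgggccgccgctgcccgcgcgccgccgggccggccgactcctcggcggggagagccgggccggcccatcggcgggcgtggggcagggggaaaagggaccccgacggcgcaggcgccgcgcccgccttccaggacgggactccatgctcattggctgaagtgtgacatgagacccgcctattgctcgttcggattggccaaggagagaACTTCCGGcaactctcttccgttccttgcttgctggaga
In Atp5g2 a pair of overlapping NRF-1 matches began 42 and 40 bases before the start, and the Atp5g1 and Atp5g3 windows held neither motif. Ndufa11 had overlapping NRF-1 matches 60 and 58 bases before its start, and Atp5h an ETS match 39 bases before. Promoters were matched for 63 of the 80 genes. Over windows of 300 bases, from 250 before to 50 after the start, the NRF-1 letters stood in 10 of these 63 genes (15.9%), against 3.05% of all 27025 genes with a window, and the ETS letters in 4 (6.35%), against 4.31%. A match is a description of letters and shows no binding, and Atp5g2, which rose, holds the same letters as Ndufa11, which fell.

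Th17 and Th1 recipients differed little in these genes. In Th17 against Th1 recipients, 1 of the 80 genes was lower and none was higher, beside 1.09% and 1.91% of all genes, and the median difference was -0.03. The exception was Cox7a1, at 5.84, 5.30, 5.53, 4.93 and 4.67 in Th17 recipients and 6.20, 5.60, 6.12, 6.06 and 6.01 in Th1 recipients, a difference of -0.74 (SE 0.187, adjusted p = 0.0239). The groups overlapped, and the call was lost without Th17 recipient 4 or 5 or Th1 recipient 1, 3 or 4, with differences of -0.60 to -0.73. Cox6a2 differed by -0.53 (SE 0.164, adjusted p = 0.0862) and Ndufa4l2 by 0.40 (SE 0.130, adjusted p = 0.105), neither past the test. For Ndufs1, Sdha, Cyc1 and Atp5a1 the differences between the recipients were -0.01, -0.07, -0.01 and -0.05, with SE of 0.077, 0.091, 0.071 and 0.085.

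In mice labelled Act1 KO no subunit gene was called after Th17 transfer. In Th17 recipients against naive mice, both labelled Act1 KO, 0 of the 80 genes passed in either direction by limma, as did 0% of all genes higher and 0% lower, and the median over the 80 was 0.05. At an unadjusted p under 0.05, 6 of the 80 genes and 1070 of all genes were counted. Ndufs1 read 10.06, 9.88, 10.07 and 9.97 in these recipients and 9.90, 9.91, 10.00, 9.88 and 9.94 in their naive controls, and Ndufa4 read 11.07, 11.09, 11.08 and 11.06 in the recipients and 11.13, 10.98, 11.04, 11.23 and 11.05 in the controls. Each gene's groups overlap. AA467197 stayed at 2.47 to 2.76 in the recipients and 2.53 to 3.05 in the controls. Macrophage markers averaged 3.41 to 3.51 in these recipients and 3.41 to 3.53 in their naive controls, and T cell markers 2.83 to 2.96 in these recipients and 2.79 to 2.99 in the controls. No gene of either marker list was called between them. By these lists, no influx of macrophages or T cells was detected in these recipients. Whether the transferred cells or disease had taken hold could not be told from the arrays alone. An absent subunit response cannot be told apart from absent disease, here and in the comparisons with wild-type recipients. Naive mice labelled Act1 KO against naive wild-type mice had no called subunit gene, beside 0.164% of all genes higher and 0.421% lower, and a median of -0.03 over the 80.

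Set directly against each other, Th17 recipients labelled Act1 KO had higher subunit levels than wild-type Th17 recipients for 54 of the 80 genes and a lower level for 1, beside 24.6% and 17.6% of all genes. The 54 include Ndufs1 (0.66, adjusted p = 2.03e-07), Ndufa4 (0.63, adjusted p = 2e-08), Ndufb10 (0.60, adjusted p = 0.00136), Sdha (0.57, adjusted p = 2.04e-05) and Atp5b (0.47, adjusted p = 3.23e-05). The exception, Cox6a2, differed by -0.53 (adjusted p = 0.0152), a call that was lost without wild-type recipient 4 or recipient 3 labelled Act1 KO, at -0.35 and -0.46. The interaction term, the Th17 response in mice labelled Act1 KO minus that in wild-type mice, was called for 37 of the 80 genes, all positive, beside 18.2% of all genes higher and 13.8% lower. Its median over the 80 genes was 0.31, against 0.05 over all genes. The largest were Ndufb10 (0.86, SE 0.200, adjusted p = 0.00131), Ndufb3 (0.83, SE 0.15, adjusted p = 8.37e-05), Ndufs1 (0.71, SE 0.112, adjusted p = 1.45e-05), Sdha (0.62, SE 0.132, adjusted p = 0.000534) and Ndufa4 (0.59, SE 0.093, adjusted p = 1.46e-05). For Ndufb10 and Ndufb3 part of this value comes from naive controls labelled Act1 KO, which averaged 9.62 ± 0.44 and 9.61 ± 0.25 (SD, n = 5 each) against 9.88 ± 0.08 and 9.87 ± 0.11 in naive wild-type mice. By complex, 18 of 31 genes of complex I, 1 of 4 of complex II, 4 of 8 of complex III, 7 of 19 of complex IV and 7 of 17 of complex V were called. With arrays centred on ribosomal protein genes the count was 69. That scaling adds the same amount to the term of every gene, and it moved the median over the 80 genes from 0.31 to 0.61. With the letter in the sample code, a possible batch, as a block the count was 22. The share of all genes called under that block is not given here. The wild-type Th17 arrays enter this term, the direct comparison and the comparison with naive wild-type mice, so these counts are not independent. In 74 of the 80 genes the difference from naive was smaller in size in mice labelled Act1 KO. That count was not made over all genes, of which none was called in mice labelled Act1 KO. It therefore cannot be read as a trait of the subunit genes.

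**Figure D4:**
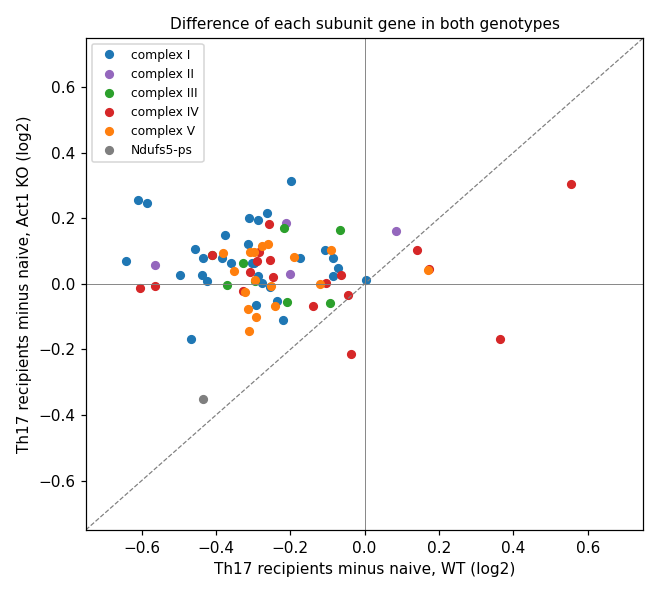
Each point is a subunit gene, coloured by complex, with its log2 difference between Th17 recipients and naive mice in the wild type on the horizontal axis and in mice labelled Act1 KO on the vertical axis. The dashed line marks equal differences. The points run from -0.64 to 0.56 along the wild-type axis, with a median of -0.29. On the other axis they run from -0.35 to 0.31, with a median of 0.05.

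Averaged per array, the common subunits separated wild-type recipients from naive wild-type mice without overlap. The mean level of the 71 common subunits was 9.95, 9.92, 9.90, 9.82 and 9.93 in Th17 recipients and 9.86, 9.93, 9.99, 9.96 and 9.92 in Th1 recipients, against 10.17, 10.18, 10.23, 10.16 and 10.15 in naive wild-type mice. In mice labelled Act1 KO it was 10.17, 10.26, 10.21 and 10.19 in Th17 recipients and 10.16, 10.17, 10.24, 10.05 and 10.12 in naive mice. Th17 recipient 4 was the lowest of the wild-type recipients, and naive mouse 4 the lowest of those labelled Act1 KO. The sample names hold a code with a letter from A to H, whose meaning the labels do not state, and some groups share a letter. It was read here as a possible batch. Within letters C, D, E and F, each with 1 array of both groups, the median difference of the 80 genes between Th17 recipients and naive wild-type mice was -0.34, -0.27, -0.22 and -0.23. Within letters A, D and E it was -0.31, -0.25 and -0.27 for Th1 recipients against naive wild-type mice. Within letter E it was 0.26 for Th17 recipients labelled Act1 KO against wild-type ones, and no letter holds both recipients and naive mice labelled Act1 KO.

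**Figure D5:**
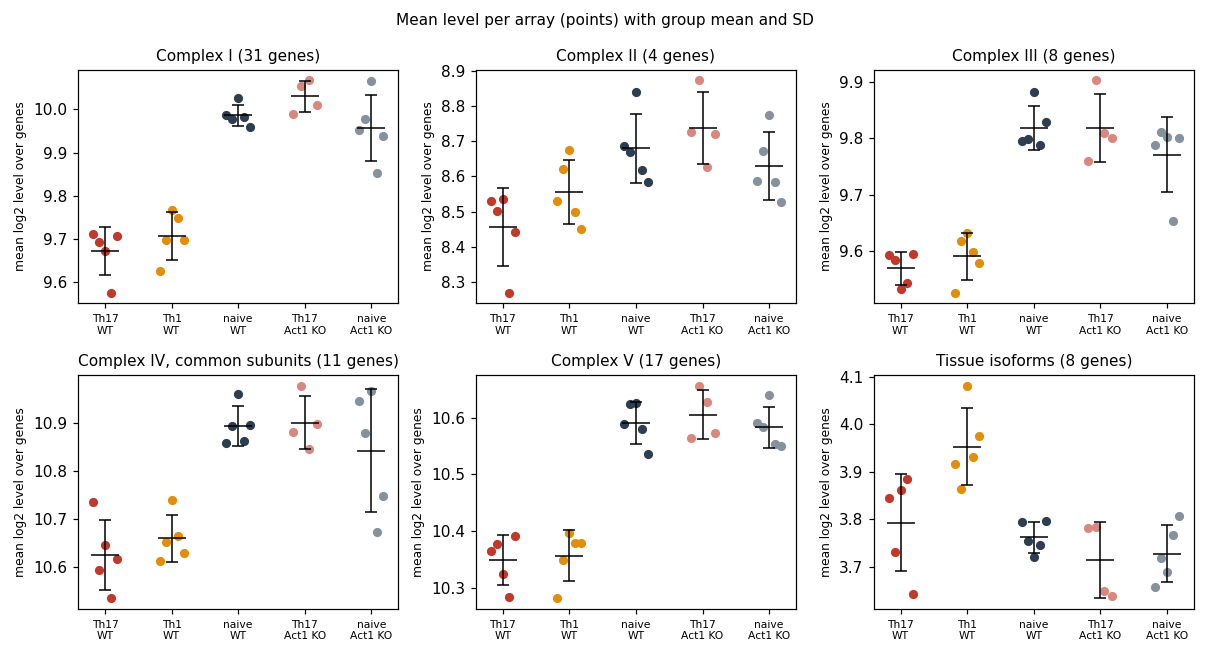
Mean log2 level over the genes of each complex in each array (points) by group on the horizontal axis, with group means and SD. Complexes I, III and V and the common subunits of complex IV are lower in Th17 and Th1 WT recipients than in naive WT mice, and the mean of the 8 tissue isoforms is highest in Th1 WT recipients.

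Of the genes that serve the chain, the enzymes of the citric acid cycle and its entry fell most uniformly. All 15 measured fell in Th17 recipients and 13 of 15 in Th1 recipients, with medians of -0.47 in Th17 recipients and -0.37 in Th1 recipients. Idh3a, the catalytic subunit of isocitrate dehydrogenase, fell by 0.71 (adjusted p = 8.64e-08) in Th17 recipients, Suclg1 of succinyl-CoA ligase by 0.66, Pdhb of pyruvate dehydrogenase by 0.63 and Idh3b by 0.53. Of all genes 25.5% fell and 18% rose in Th17 recipients, and 24.1% fell and 16.7% rose in Th1 recipients. Of 40 assembly factors, 15 fell and 2 rose in Th17 recipients (37.5% and 5%) and 14 fell and 2 rose in Th1 recipients (35% and 5%). Atpaf1, which assembles the F1 head, fell by 0.84 in Th17 recipients and Ecsit, an assembly factor of complex I with a role in signalling, by 0.73. The 2 that rose, Coa5 and Nubpl, differed by 0.30 and 0.45 and were named after their values were seen. Of 21 genes of transport and membrane shape, 9 fell and 2 rose in Th17 recipients (42.9% and 9.52%) and 10 fell and 2 rose in Th1 recipients (47.6% and 9.52%). Opa1, which shapes the inner membrane, was among those that fell, at -0.70 and -0.60.

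Of 18 regulators of mitochondrial genes, 6 fell and 2 rose in Th17 recipients (33.3% and 11.1%, beside 25.5% and 18% of all genes) and 5 fell and 2 rose in Th1 recipients (27.8% and 11.1%, beside 24.1% and 16.7%), shares near those of all genes. Esrrg, a nuclear receptor that drives genes of oxidative metabolism, read 7.16, 6.52, 6.66, 6.49 and 6.34 in Th17 recipients and 7.02, 7.17, 7.10, 7.003 and 7.03 in Th1 recipients, against 7.94, 7.97, 7.84, 8.16 and 7.50 in naive wild-type mice. It fell by 1.24 (adjusted p = 1.55e-08) in Th17 recipients and 0.81 (adjusted p = 1.48e-05) in Th1 recipients. Its relative Esrra fell by 0.53 in Th17 recipients and by 0.36 in Th1 recipients. Gabpb2, which encodes a partner of the ETS factor Gabpa, and Pprc1, a coactivator related to PGC-1, rose by 0.61 and 0.50 in Th17 recipients, and Nrf1, which encodes NRF-1 and was named for the motif above, had a difference of 0.05 (adjusted p = 0.816). None of these lists had a called gene when Th17 recipients were set against naive mice, both labelled Act1 KO.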

How the data were processed

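Spinal cord RNA of 24 mice was hybridized to Affymetrix HT-MG-430PM-96 arrays, each mouse on its own array. Values deposited by the authors are log2 expression from RMA for 45118 probe sets. The sources used here do not give the RMA version or which arrays were normalized together. A shift of all genes of a group would not be seen in such values. The platform annotation gave 28898 probe sets a single gene symbol, and only these were used (551 have several symbols and 15669 are unnamed). A gene stood for its brightest probe set on average, which gave 17097 genes. The 80 subunit genes had 137 probe sets, with more than 1 for 38 genes. All groups entered 1 limma fit (version 3.58.1, lmFit and eBayes, R 4.3.3), two-sided, with Benjamini-Hochberg adjustment over all genes and calls at an adjusted p under 0.05. Same-group arrays correlated at 0.986 to 0.997 and none were identical. P-values rest on the spread between individual mice, whose number limits the precision. Tested on simulated data for Th17 recipients against naive wild-type mice, the fit over 17097 genes recovered 12%, 62%, 98% and 100% of genes changed by 0.25, 0.5, 1 and 2 on the log2 scale. The simulation changed 50 genes of each size, whereas 4367 genes fell and 3069 rose in the data. The adjustment is stricter when few genes change, so these shares do not measure the sensitivity of the real comparison.

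The subunit genes and lists were chosen with earlier results of these data known. Named genes are, for each complex, the 4 with the smallest adjusted p in Th17 recipients, the 5 largest increases and decreases of each comparison, called genes against the main direction, all of complex II, isoforms with their partners, the c-ring genes, those with a called interaction, and up to 4 genes of each other list. Alternatives covered probe set choice, filters, scalings, variance models, which groups were fitted, a replicate block, the letter in the sample code (a possible plate row, which the labels do not state) as a block or linear term, arrays left out, a minimum difference of 0.25, and, in place of limma, the t-test of the methods and an exact Mann-Whitney test. Promoter windows were read from RefSeq (GRCm38.p6). Protein sequences of the isoforms were not analysed here.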

Additional observations from a re-analysis of the deposited data

Results flagged for a closer look

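The Th17 response differed between mice labelled Act1 KO and wild-type mice for 37 subunit genes, by the interaction term (limma, adjusted p under 0.05); each value is the log2 difference between Th17 recipients and naive mice labelled Act1 KO minus that in the wild type. In complex I the interaction term was Ndufa10 0.43, Ndufa11 0.48, Ndufa6 0.48, Ndufa8 0.44, Ndufab1 0.53, Ndufb10 0.86, Ndufb11 0.31, Ndufb2 0.56, Ndufb3 0.83, Ndufb4 0.36, Ndufb8 0.42, Ndufb9 0.51, Ndufc2 0.51, Ndufs1 0.71, Ndufs4 0.51, Ndufs7 0.47, Ndufs8 0.30 and Ndufv2 0.46. In complex II the interaction term was Sdha 0.62. In complex III the interaction term was Cyc1 0.50, Uqcr11 0.39, Uqcrc1 0.36 and Uqcrfs1 0.39. In complex IV the interaction term was Cox4i1 0.44, Cox5a 0.50, Cox5b 0.34, Cox6a1 0.33, Cox6c 0.31, Cox8a 0.36 and Ndufa4 0.59. In complex V the interaction term was Atp5a1 0.47, Atp5b 0.40, Atp5c1 0.39, Atp5g1 0.39, Atp5h 0.41, Atp5k 0.38 and Atp5pb 0.31. Of the 37 genes, 35 were also called lower in wild-type Th17 recipients. The other 2, Ndufa6 and Ndufs4, differed there by -0.26 and -0.20 (limma adjusted p = 0.0919 and 0.0865), and by 0.22 and 0.31 in mice labelled Act1 KO. As stated above, an absent response in mice labelled Act1 KO cannot be told apart from absent disease.

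Of 275 groups of arrays, 5 for each of 55 named genes, 12 held an array whose gap to the others was large for the range of the group. Chance gives about 1 in 20 such groups. In Th17 recipients labelled Act1 KO, recipient 2 read 11.52 for Atp5a1 and 10.01 for Uqcr11. In naive mice labelled Act1 KO, mouse 4 read 10.84 for Atp5a1 and 10.99 for Cox6b1, mouse 2 read 3.25 for Cox4i2, mouse 1 read 3.19 for Cox8c and mouse 5 read 8.64 for Ndufb4. In wild-type Th17 recipients, recipient 4 read 4.81 for Cox6a2, and recipient 5 read 8.67 for Ndufb4 and 10.15 for Sdha. In naive wild-type mice, mouse 3 read 10.11 for Ndufab1 and mouse 4 read 8.72 for Ndufb4.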

How the results depend on the processing

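Counts here are of the 80 subunit genes. Centring on ribosomal protein genes shifts all genes of a comparison by the same amount, so its counts include that shift. Centring the arrays on ribosomal protein genes gave 75 lower and 0 higher in Th17 recipients, 74 lower and 1 higher in Th1 recipients, 0 lower in Th17 recipients labelled Act1 KO against wild-type ones, and 69 positive interaction terms. It also reversed Atp5g2 in Th17 (-0.20) and Th1 recipients (-0.16), Cox4i2 (-0.38) and Sdhd (-0.35) in Th1 recipients, and Cox7b2 between Th17 recipients labelled Act1 KO and wild-type ones (0.29). Using the mean of all probe sets turned Ndufb8 in Th17 recipients to 0.011, through a dim probe set, and leaving out probe sets that may read related transcripts turned Atp5c1 in Th1 recipients to 0.10. The count of 2 higher in Th17 recipients became 1 with dim genes left out, median centring, quantile normalization, only the compared groups, a replicate block, a block by the letter in the sample code, Th1 recipients 4 and 5 left out, the exact Mann-Whitney test (adjusted or not) or a minimum of 0.25. Between Th17 and Th1 recipients array weights gave 2 lower and 1 higher; only the compared groups, Th1 recipients 4 and 5 left out, the methods' t-test adjusted and the exact Mann-Whitney test adjusted each gave 0 lower. Unadjusted, the methods' t-test gave 8 lower and 3 higher and the exact Mann-Whitney test 5 lower and 2 higher. In mice labelled Act1 KO, Th17 recipients against naive, each unadjusted test gave 1 higher, and in naive mice labelled Act1 KO against wild-type ones the unadjusted Mann-Whitney test gave 1 lower. For Th17 recipients labelled Act1 KO against wild-type ones the count of 1 lower became 3 with array weights and 2 with the mean of probe sets, that letter as a linear term, the unadjusted t-test and either Mann-Whitney test. The block by letter gave 22 interaction calls, and the share of all genes called under it is not given here. The causes were not tested.

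Leaving out 1 array at a time gave 45 to 51 lower and 1 to 2 higher in Th17 recipients, 40 to 49 lower and 4 to 5 higher in Th1 recipients, 0 to 1 lower and 0 to 1 higher between them, 46 to 55 higher and 0 to 1 lower in Th17 recipients labelled Act1 KO against wild-type ones, and 31 to 38 interaction calls. Deviations of same-numbered arrays from their group means correlated at r between -0.29 and 0.44 over 46 pairs, 16 of them over 0.1. For arrays numbered 2 the values ran from -0.15 to 0.44. Arrays of different numbers were not compared, so these values cannot tell whether numbers pair mice. With the replicate block 53 were lower and 1 higher in Th17 recipients, 49 and 4 in Th1 recipients, 1 and 0 between Th17 and Th1 recipients, 1 and 54 in Th17 recipients labelled Act1 KO against wild-type ones, with 39 interaction calls and none in the other comparisons. Of the values of named genes under all alternatives, 15442 kept direction and side of the threshold, 172 gained a call, 294 lost one and 7 reversed. Dim probe sets, among them Cox8b and Ndufa4l2, limit what can be measured.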
